A study of Mus musculus with 8 samples.

Results

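The 83 genes described here are the cytosolic ribosomal protein genes found among the 11841 gene symbols of an RNA-seq table from stimulated CD4 T cells. Membership was decided by symbol, under a rule set with earlier results of these data known. A symbol had to begin with Rpl or Rps and a digit, and Rpsa, Rplp0, Rplp1 and Rplp2 were added, while 8 S6 kinase symbols and 6 pseudogene symbols ending in -ps were left out. No member stood on more than 1 line of the table. Of the 83 genes, 45 encode proteins of the large ribosomal subunit and 31 encode proteins of the small subunit, together called the core genes below. A further 5 are paralogs of core genes (Rpl22l1, Rpl36al, Rps27l, Rpl39l and Rps4y2). The symbol rule also took in Rpl7l1, which acts in ribosome assembly, and Rps19bp1, whose product binds RPS19 and is not itself a ribosomal protein.

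Total RNA was taken from CD44+ CD4+ T cells of skin-draining lymph nodes after stimulation with PMA and ionomycin over 2 h. PMA and ionomycin act downstream of the T cell receptor, and CD44 marks T cells that have met antigen. All mice were on the BALB/cAJcl background and were wild type (WT), T-bet-/-, STAT6-/- or T-bet-/- STAT6-/-, and the 2 single mutants are named T-bet-null and STAT6-null and the last genotype double-null in what follows. Each genotype had 2 libraries, 8 in all, and the labels give neither the age of the mice, nor how the alleles were made, nor whether a genotype's 2 libraries are separate animals. The spread behind the p-values is thus that of these samples alone and may be technical. T-bet, encoded by Tbx21, drives Th1 development, and STAT6 is the factor through which IL-4 and IL-13 act.

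Ribosomal proteins are made in near-equal numbers, because each core protein is found in a single copy in most ribosomes, the stalk proteins RPLP1 and RPLP2 being the known exception. Their mRNAs are abundant and short, and they share a 5′ terminal oligopyrimidine (TOP) motif, a C at the cap followed by an unbroken run of C and T. Through this motif their translation follows mTOR signalling and the RNA-binding protein LARP1, so that the amount of mRNA and the amount of protein made from it can part ways. T cells that become activated build new ribosomes before they divide.

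The TOP motif can be read in the genome at annotated transcription starts, and the following examples are shown because they are genes to which the results return. Starts from RefSeq (assembly GRCm38.p6, the assembly behind mm10) were on hand for 62 of the 83 members, and each window covers the 15 bases before the start and the first 15 transcribed bases, 5′ to 3′ on the coding strand. Capitals mark the longest run of C and T in the window. The first group holds core genes whose first transcribed base is a C inside the run. It does not stand for all core genes. In this group Rplp2, Rpl15, Rpl28 and Rps6 were called lower in both T-bet-null and STAT6-null cells. Rps27 was called lower in STAT6-null but not in T-bet-null cells, and Rpl35 in neither. Outside the group, Rpl41, Rplp0, Rps4x and Rpl39 were called lower in both, and their windows lack this feature. The longest run was 3 bases at Rpl41, 5 at Rplp0 and 4 at Rps4x, and at Rpl39 a run of 8 bases did not cover the start. A link between the motif and the direction of change was not tested.
Rplp2, chr7:141447636-141447665, plus strand: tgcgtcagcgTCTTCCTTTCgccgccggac
Rpl35, chr2:39005117-39005146, minus strand: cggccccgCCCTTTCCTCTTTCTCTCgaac
Rpl15, chr14:18270972-18271001, minus strand: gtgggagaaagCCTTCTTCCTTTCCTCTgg
Rpl28, chr7:4792950-4792979, plus strand: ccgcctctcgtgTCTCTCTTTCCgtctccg
Rps6, chr4:86857353-86857382, minus strand: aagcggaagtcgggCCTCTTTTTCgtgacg
Rps27, chr3:90213634-90213663, minus strand: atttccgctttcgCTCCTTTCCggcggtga

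The next group holds the 4 members that were called higher than WT in some mutant, which are the paralogs Rpl36al and Rps27l and the 2 members that are not ribosomal proteins, with Rpl36a, the core gene that is the parent of Rpl36al. The Rps27l window holds a run of 9 bases that does not cover the start, and the other 4 windows hold no run of 8 bases or more. Another annotated start of Rps27l has a longest run of 4 bases.
Rpl36a, chrX:134585639-134585668, plus strand: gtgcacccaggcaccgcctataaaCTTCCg
Rpl36al, chr12:69184053-69184082, minus strand: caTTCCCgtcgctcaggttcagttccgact
Rps27l, chr9:66946071-66946100, plus strand: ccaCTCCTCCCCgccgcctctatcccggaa
Rpl7l1, chr17:46782642-46782671, minus strand: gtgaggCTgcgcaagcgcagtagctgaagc
Rps19bp1, chr15:80264292-80264321, minus strand: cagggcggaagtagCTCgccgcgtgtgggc

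Over the 66 annotated starts used, of 56 core genes, 26 (39.4%) had a run of C and T of 8 or more bases in the window. Of all 32851 starts in the RefSeq table, 12% had such a run. Chromosome 18 was left out of the core starts and kept in the 32851. The run could lie anywhere in the window, also wholly before the start, as the 11 bases at Rpl4 do. This count is therefore wider than the TOP motif, which begins at the cap. The longest run had a median of 6 bases over the core starts and 4 over all starts. The first transcribed base was a C at 31.8% of the core starts and at 16.3% of all starts. These counts are a description of annotated starts, which need not be those used in these cells, and a window without a run says nothing on how its gene is translated.

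The ribosomal protein genes were among the most abundant transcripts of these cells. On the FPKM scale, which corrects for transcript length and library size, 40 members had a mean of at least 1000 FPKM, of 77 genes in the whole table that reached that level, and 48 of the 100 highest genes were members. The 81 members that were tested for differences (at least 1 FPKM in at least 2 libraries) ran from 20.3 to 3507 FPKM on average, with a median of 988 and quartiles of 617 and 1460. The 83 genes lie on 19 chromosomes. Rplp1 (chr9:61913283-61914510), which encodes a stalk protein that binds elongation factors, stood highest. Its FPKM was 4487 and 3759 in WT, 3330 and 3130 in T-bet-null, 3042 and 3125 in STAT6-null, and 3387 and 3795 in double-null libraries. The next 9 by mean level were Rpl38, Rpl12, Rpl23a, Rps15, Rps29, Rps12, Rpl41, Rps20 and Rplp2, all with a genotype mean of at least 1614 FPKM in each genotype. At the other end stood Rpl39l, Rps4y2, Rpl30, Rps19bp1 and Rpl7l1.

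**Figure D1:**
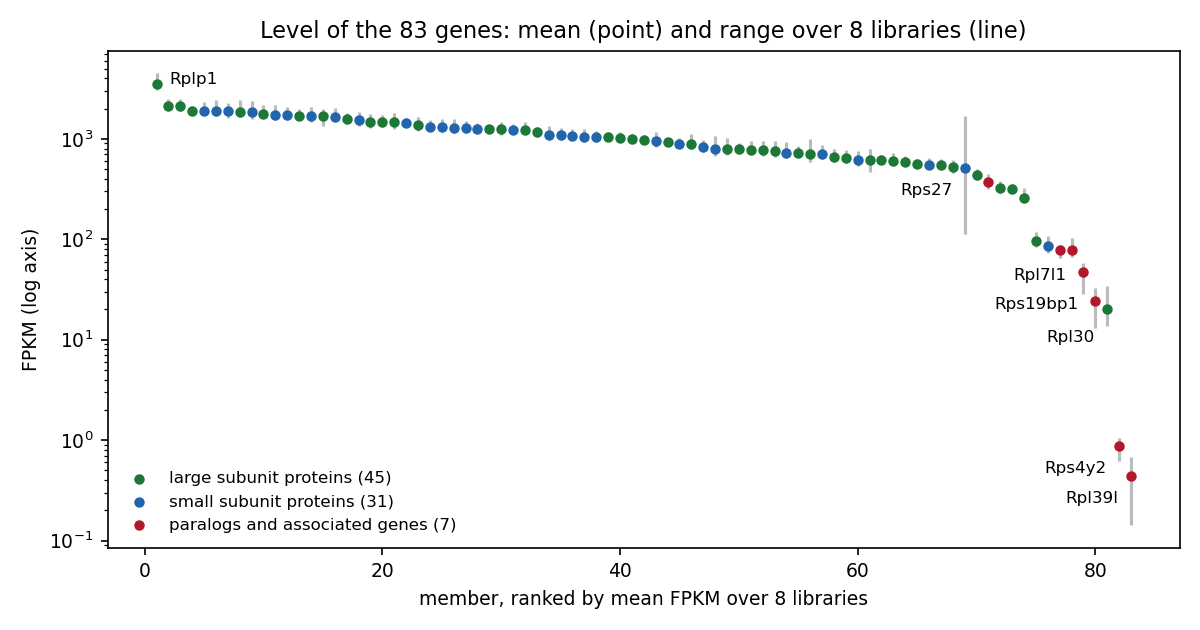
FPKM of the 83 genes on a log axis, ranked by mean; each point is the mean over the 8 libraries and each line runs from the lowest to the highest library. The core genes form a slope from 3507 FPKM downwards with narrow ranges, Rps27 has the widest range among the high genes (112 to 1692 FPKM), and Rps4y2 and Rpl39l lie at 1.04 FPKM or below in every library.

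Core genes were not all at the same level. Rpl30, a large subunit gene, stood at 13.6 to 34.1 FPKM and Rpl22 at 83.7 to 118 FPKM, far under most other genes of the same subunit. Ribosomal protein mRNAs have many processed pseudogene copies of nearly the same sequence, and the handling of reads shared between copies is not stated. The level of a gene with close copies is therefore uncertain, and this applies most to genes whose level is far from the rest.

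Before the genotypes are compared, the replicate spread has to be given, because the WT libraries differed from each other in these genes. WT replicate 1 was higher than WT replicate 2 in 80 of the 81 tested members, with a median log2 difference of -0.18 for replicate 2 minus replicate 1. The median SD between replicates, on the log2(FPKM + 1) scale, was 0.125 over the members in WT, against 0.0552 over 1005 other genes of at least 64 FPKM. In T-bet-null it was 0.0347 against 0.033, in STAT6-null 0.0262 against 0.0345 and in double-null 0.0482 against 0.0628. The members thus spread more than other abundant genes in the WT pair, and about as much or less in the mutant pairs. The smallest pooled SD was that of Rpl15 (0.0396), followed by Rps6 (0.0454) and Rps3a (0.0458). Rps27 had the largest (0.851), then Rpl30 (0.421) and the paralog Rpl22l1 (0.156).

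Other facts of the libraries bear on these comparisons. Tbx21 stood at 30.8 and 31.6 FPKM in WT and at 1.44 to 2.49 in the 4 libraries that lack T-bet, and it was 102 and 92.1 in the STAT6-null pair. Stat6 stood at 88.8 to 90.9 FPKM with STAT6 and at 26.9 to 31.6 in the 4 libraries without it. The genes of the sorted cell type were present in every library but differed with genotype. Cd4 stood at 195 and 208 FPKM in WT and at 88.1 to 127 in the mutants, Cd3e at 376 and 360 in WT and 228 to 345 in the mutants, and Cd44 at 251 and 282 in WT and 355 to 442 in the mutants. Of the 9 CD4 T cell markers tested, 7 were called lower than WT without T-bet, 4 without STAT6 and 5 without either. In the same comparisons 2, 3 and 2 were called higher, and the medians were -0.45, -0.11 and -0.45. Of all tested genes 36.3%, 36.1% and 36.7% were called lower, and 34.2%, 34.9% and 36.3% higher. Of 10 erythroid markers 2 were in the table, Hba-a1 and Beta-s, and they summed to 442 FPKM in WT replicate 1 and 224 in WT replicate 2, against 2.63 to 7.48 in the mutant libraries. The 10 naive and central memory markers summed to 608 and 564 FPKM in WT and to 318 to 405 in the mutants. The 9 genes induced by stimulation summed to 12695 and 12789 FPKM in WT and to 9230 to 11306 in the mutants. The sum hides opposite directions: 8, 7 and 7 were called lower than WT and 1, 1 and 2 higher, without T-bet, STAT6 and either. Fosb stood at 1002 and 888 FPKM in WT and 219 to 274 in the mutants. Il2 stood at 2741 and 2911 FPKM in WT and 4141 to 6133 in the mutants. The 5 of 9 myeloid and dendritic markers in the table summed to 186 and 182 FPKM in WT and to 98.5 to 139 in the mutants. Markers of B cells (6 of 8, 1.90 to 7.53 FPKM), CD8 T cells (1 of 2, 3.02 to 5.60 FPKM) and NK and innate-like T cells (2 of 6, 0.577 to 1.09 FPKM) were low throughout. Kit, the 1 of 4 mast cell and basophil markers in the table, read 18.1 and 18.6 FPKM in WT, 8.67 and 8.11 in T-bet-null, 32.5 and 34.0 in STAT6-null, and 56.7 and 62.9 in double-null libraries, and it was called in all 7 comparisons. The part of these differences in the results below was not tested. In bulk RNA, fewer cells of a type and less RNA per cell cannot be told apart.

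The ribosomal protein genes took the largest share of the table in WT and the smallest in STAT6-null cells. Their summed FPKM made up 21.6% and 20.0% of the table in WT, 18.9% and 18.8% in T-bet-null, 16.8% and 17.1% in STAT6-null, and 18.1% and 18.5% in double-null libraries. The mean share was 20.8% ± 1.17 (SD, n = 2) in WT, 18.8% ± 0.12 without T-bet, 17.0% ± 0.176 without STAT6 and 18.3% ± 0.247 without either. No mutant library reached the lower WT library, and no other library was as low as the STAT6-null pair. The median over the tested members of each gene's log2 level minus its own mean over the 8 libraries was also highest in WT and lowest in STAT6-null cells, while double-null stood above T-bet-null, the reverse of their order by share. It was 0.251 and 0.082 in WT, -0.020 and -0.065 in T-bet-null, -0.141 and -0.112 in STAT6-null, and -0.018 and 0.038 in double-null libraries.

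**Figure D2:**
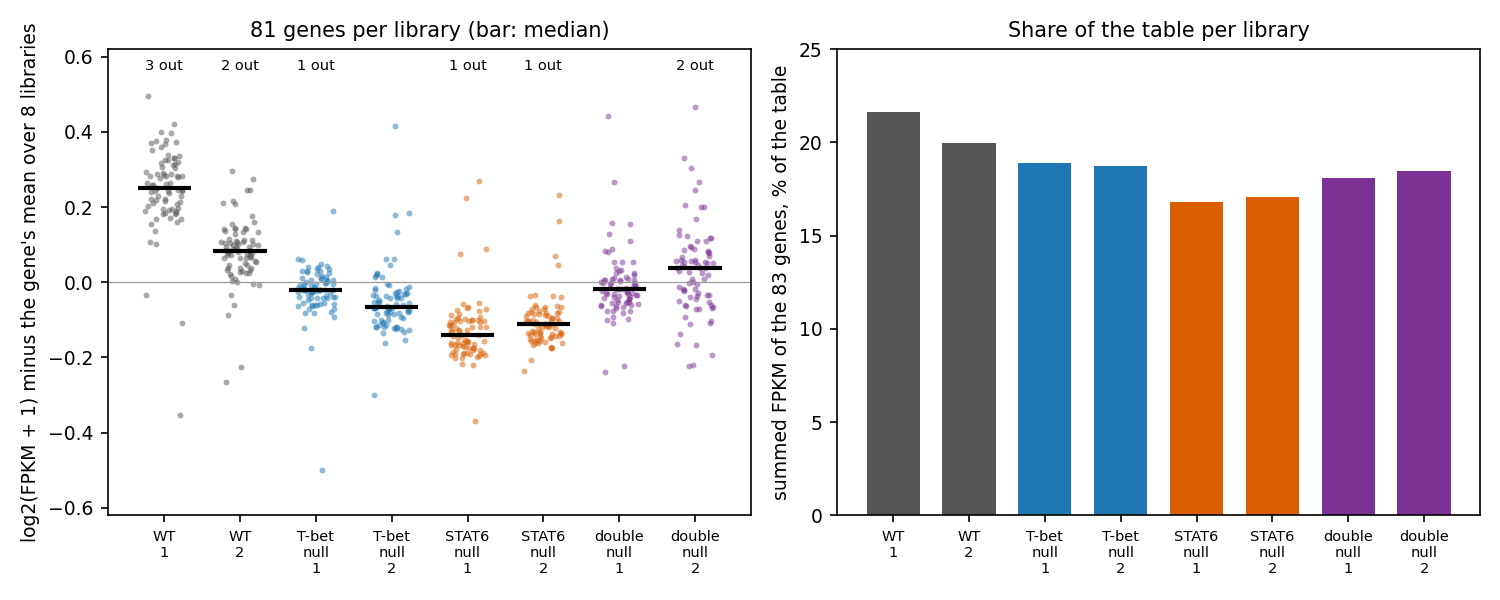
Left, log2(FPKM + 1) of each of the 81 tested genes minus its mean over the 8 libraries, with a bar at the median and a count of points outside the axis; right, summed FPKM of the 83 genes as a percent of the table. WT replicate 1 stands highest in both panels (median 0.251, share 21.6%) and the STAT6-null libraries lowest (medians -0.141 and -0.112, shares 16.8% and 17.1%).

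Loss of T-bet went with lower levels of most core genes, by small amounts. With a limma fit over all 10281 tested genes, called at a Benjamini-Hochberg adjusted p under 0.05, 50 of the 81 members fell and 3 rose. Over all tested genes 36.3% were called lower and 34.2% higher. Both T-bet-null libraries lay below both WT libraries in 68 of 81 members, against 44.7% of all tested genes. The core genes had a median log2 difference of -0.21 (a change of -13.7%), with 49 of 76 called lower and 0 higher, against -0.02 over all genes. The large subunit (27 of 45 called lower, median -0.19) and the small subunit (22 of 31 called lower, median -0.23) gave like values.

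Among the members called, the largest T-bet-null falls were those of Rpl28, Rpl41, Rpl36a, Rps20 and Rpl39. Rpl28 (chr7:4792965-4794547), a large subunit gene, read 1972 and 1768 FPKM in WT and 1467 and 1345 in T-bet-null libraries. Its log2 difference was -0.41 (SE 0.0856, limma adjusted p = 0.00229). Rpl41 (chr10:128548110-128549168), which encodes a very short peptide of the large subunit, read 2439 and 2138 FPKM in WT and 1773 and 1683 in T-bet-null libraries, a log2 difference of -0.40 (SE 0.0764, limma adjusted p = 0.00134). The T-bet-null libraries lay below the WT libraries in both genes. Rps27 had a larger fitted value (-0.66) with no call. The 3 members that rose were Rps19bp1, Rpl7l1 and Rpl36al, none of them a core gene.

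The T-bet-null count rested on scaling and on single libraries. It was 16 lower without WT replicate 1, 27 without T-bet-null replicate 1 and 11 without T-bet-null replicate 2, and quantile normalization gave 10 lower and 5 higher, against 50 and 3.

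Loss of STAT6 went with lower levels of nearly all core genes. In STAT6-null against WT cells 71 of 81 members fell and 3 rose, where 36.1% of all tested genes were called lower and 34.9% higher. Both STAT6-null libraries lay below both WT libraries in 76 members, against 43.5% of all tested genes. The core genes had a median log2 difference of -0.30 (a change of -18.9%), with 70 of 76 called lower and 0 higher, against -0.01 over all genes. In the large subunit 41 of 45 genes were called lower (median -0.28), and in the small subunit 29 of 31 (median -0.32). The 7 members without a call were Rpl18, Rpl27, Rpl30, Rpl35, Rpl36al, Rps13 and Rps2. Without STAT6-null replicate 1 the count was 46 lower.

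Rps27 had the largest fitted change in STAT6-null cells and is treated with its paralog below. It was followed by Rpl36a, Rpl39, Rpl41 and Rps20. Rpl36a (chrX:134585654-134588062), a large subunit gene, read 791 and 722 FPKM in WT and 471 and 517 in STAT6-null libraries, a log2 difference of -0.61 (SE 0.084, limma adjusted p = 0.00017). Rpl39 (chrX:37082518-37085222), which lies at the peptide exit tunnel, read 988 and 831 FPKM in WT, 718 and 690 in T-bet-null, 602 and 648 in STAT6-null, and 593 and 613 in double-null libraries. Its log2 difference from WT was -0.36 without T-bet, -0.54 without STAT6 and -0.59 without either, with limma adjusted p-values of 0.00426, 0.000425 and 0.00022. All 6 mutant libraries lay below the lower WT library in Rpl39, and the call held in each of 17 alternative settings in all 3 comparisons.

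In double-null cells the difference from WT depended on the scaling. Against WT 34 of 81 fell and 4 rose, where 36.7% of all tested genes were called lower and 36.3% higher, and 42.0% of the members were called lower. With equal summed FPKM 52 fell, and under quantile normalization 44. The median over the members was -0.16 in double-null and -0.21 in T-bet-null cells in the fit as deposited, -0.20 and -0.12 with equal summed FPKM, and -0.15 and -0.04 under quantile normalization, so the order of these 2 genotypes turned. Both double-null libraries lay below both WT libraries in 50 members, against 42.8% of all tested genes. The core genes had a median log2 difference of -0.17 (a change of -11.1%), with 33 of 76 called lower and 0 higher. The largest called falls were those of Rpl39, Rps21, Rps15a, Rpl3 and the paralog Rpl22l1. Rpl3 (chr15:80077781-80083406), which lies near the peptidyl transferase centre of the large subunit, read 956 and 869 FPKM in WT and 701 and 693 in double-null libraries, a log2 difference of -0.39 (SE 0.0625, limma adjusted p = 0.000446). Its double-null libraries lay below the WT pair and between the T-bet-null (749 and 736 FPKM) and STAT6-null (655 and 671 FPKM) libraries. The count of falls was 15 without WT replicate 1, 59 without WT replicate 2 and 20 without double-null replicate 1. The 3 comparisons with WT share the WT libraries, so their directions are not independent.

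The core genes differed from WT within a narrow band. The middle 50% of the 76 core genes spanned 0.10 on the log2 scale in T-bet-null against WT, 0.128 in STAT6-null against WT and 0.156 in the double-null comparison. Over the 1005 other genes of at least 64 FPKM the same width was 0.677, 0.676 and 0.768. The difference was therefore spread over most core genes by a like amount rather than carried by a few of them.

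**Figure D3:**
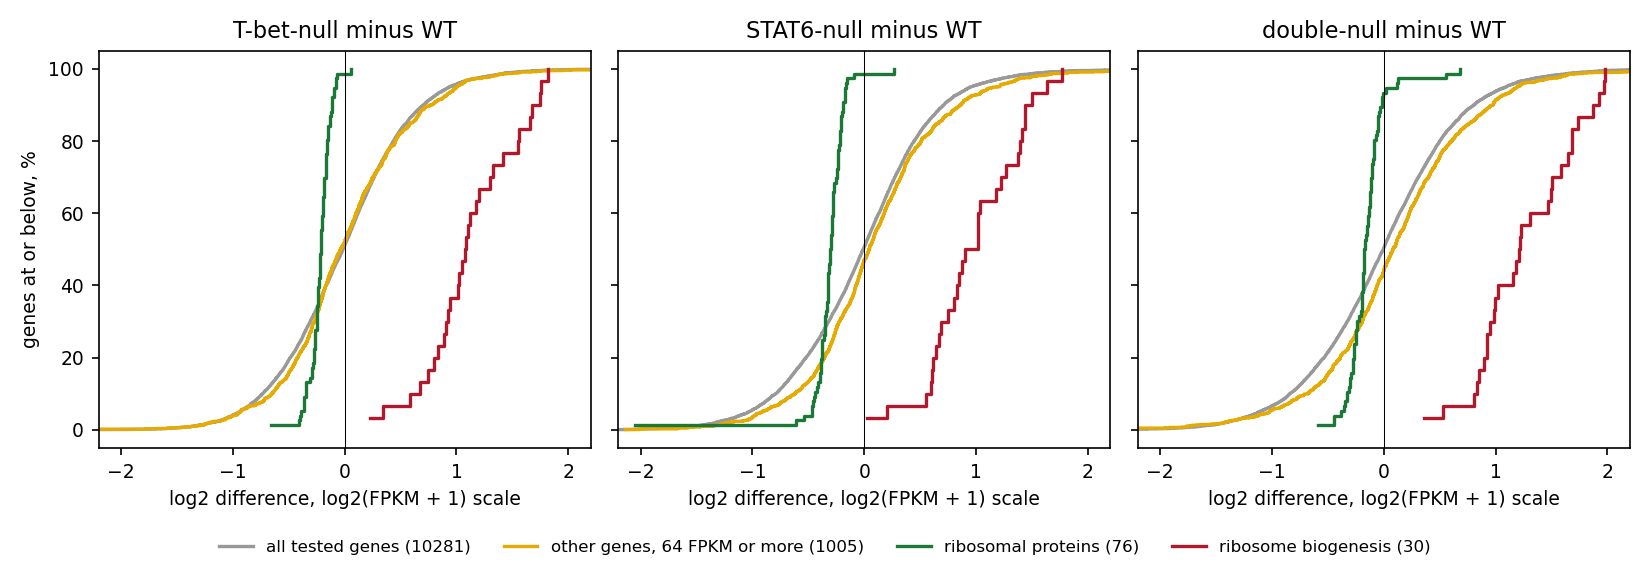
Cumulative share of genes (percent) against the log2 difference from WT, for each mutant genotype: all tested genes (10281), other genes of at least 64 FPKM (1005), the core ribosomal protein genes (76) and a list of ribosome biogenesis genes (30). The core genes rise steeply just left of 0 (medians -0.21, -0.30 and -0.17), and the biogenesis genes lie to the right of 0 (medians 1.08, 0.96 and 1.21).

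The genotypes without WT were then compared with each other. No member passed the threshold between STAT6-null and T-bet-null cells, and at an unadjusted p under 0.05 limma gave 7 lower and 0 higher. Among all tested genes 14.9% were called lower and 12.3% higher in this comparison. The members had a median log2 difference of -0.09, and the largest values were -1.40 for Rps27, -0.22 for Rpl36a and -0.21 for Rpl14 (limma adjusted p = 0.105, 0.0815 and 0.0662). Quantile normalization gave 35 called lower and equal summed FPKM 32. Both STAT6-null libraries lay below both T-bet-null libraries in 58 members, against 39.3% of all tested genes. In 49 of 81 members both STAT6-null libraries lay below all other 6, against 9.11% of all tested genes. The STAT6-null mean was the lowest of the 4 genotypes in 64 members, the T-bet-null in 7, the double-null in 5 and the WT in 5. In 49 members both WT libraries lay above all 6 mutant libraries, against 33.7% of all tested genes.

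Against T-bet-null cells the double-null cells had 4 members higher and 0 lower, where 16.4% of all tested genes were called higher and 16.2% lower. These were Rpl28 (log2 difference 0.40), Rps19bp1 (0.37), the small subunit gene Rps2 (0.24) and the large subunit gene Rpl35 (0.22), with limma adjusted p-values of 0.00845, 0.00272, 0.0367 and 0.0479. Both double-null libraries lay above both T-bet-null libraries in 35 members, against 34.8% of all tested genes. The direction over the members was not stable under scaling. Their median log2 difference was 0.06 in the fit as deposited, -0.10 under quantile normalization, with 23 called lower and 2 higher, and -0.06 with equal summed FPKM, with 9 lower and 2 higher. The calls of Rps2 and Rpl35 were lost in 8 and 9 of the 17 alternatives.

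Against STAT6-null cells the double-null cells had 7 members higher and 0 lower, where 11.3% of all tested genes were called higher and 8.63% lower. They were Rps27, Rpl36a, Rps26, Rpl35, Rpl36al, Rps19bp1 and Rpl21. Both double-null libraries lay above both STAT6-null libraries in 68 of 81 members, against 33.2% of all tested genes. Rps26 (chr10:128624529-128626506), a small subunit gene mutated in Diamond-Blackfan anaemia, read 1471 and 1455 FPKM in STAT6-null and 1677 and 2076 in double-null libraries. The log2 difference was 0.35 (SE 0.0993, limma adjusted p = 0.0385), and the call was lost in 7 of 17 alternatives. The count of 7 was 0 without STAT6-null replicate 1, 1 without STAT6-null replicate 2 or double-null replicate 2, 3 without either T-bet-null library, and 15 without either WT library.

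The interaction asks whether loss of STAT6 had the same effect with and without T-bet. It is the double-null minus T-bet-null difference less the STAT6-null minus WT difference. It was positive and called in 59 of 81 members and negative and called in 2, where 29.6% of all tested genes were called positive and 27.7% negative. The median over the members was 0.33, against 0.01 over all tested genes. All 59 positive calls were core genes. Loss of STAT6 went with a median log2 difference of -0.30 over the members in cells with T-bet and of 0.06 in cells without it. The 5 largest positive values were those of Rps27, Rpl36a, Rpl28, Rplp1 and Rps26, and the 2 negative ones those of Rpl7l1 and Rps19bp1. The interaction takes in all 8 libraries, and it rests in part on the WT pair. The count of positive calls was 25 without T-bet-null replicate 2, 29 without STAT6-null replicate 1, 33 without STAT6-null replicate 2, 10 under quantile normalization, with 2 negative, and 35 with equal summed FPKM. That last scaling moved the median of all genes from 0.01 to -0.10, and the median of the members from 0.33 to 0.20.

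Members with known roles of their own lay within the range of the other core genes. The stalk gene Rplp1 had log2 differences from WT of -0.35 without T-bet, -0.41 without STAT6 and -0.20 without either, of which the first 2 were called (limma adjusted p = 0.0123, 0.00494 and 0.105). Rplp2, its partner in the stalk, had -0.27, -0.29 and -0.17, and Rplp0, the stalk base, had -0.22, -0.36 and -0.14, called in the same 2 comparisons. Rpsa, a small subunit gene also known as the laminin receptor, had -0.21, -0.30 and -0.16, again with calls in T-bet-null and STAT6-null cells. The 4 genes thus fell in both single mutants and gave no call in double-null cells.

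Rpl5 and Rpl11 encode the proteins that form a particle with 5S rRNA and can bind MDM2. Rpl5 read 697 and 627 FPKM in WT, 618 and 617 in T-bet-null, 562 and 578 in STAT6-null, and 598 and 596 in double-null libraries. It fell in STAT6-null cells (log2 difference -0.21, limma adjusted p = 0.0138), as did Rpl11 (-0.27, limma adjusted p = 0.0219), and neither was called in T-bet-null or double-null cells. Rps6, the substrate of the S6 kinases, read 966 and 892 FPKM in WT, 819 and 798 in T-bet-null, 746 and 755 in STAT6-null, and 834 and 857 in double-null libraries. It fell in T-bet-null (-0.20, limma adjusted p = 0.0168) and STAT6-null cells (-0.31, limma adjusted p = 0.0017), and in double-null cells its value was -0.13 with no call. All mutant libraries lay below both WT libraries in Rpl5 and in Rps6.

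Rps3, which can also act with NF-kB, had log2 differences of -0.22, -0.24 and -0.14 in the T-bet, STAT6 and combined mutants, with no call in the last. Rpl13a, which acts in the GAIT complex of inflammatory translation control, had -0.29, -0.42 and -0.30 and was called lower in all 3, as were Rps19 (-0.31, -0.39 and -0.31) and Rps14 (-0.25, -0.28 and -0.25), both linked to anaemias. Rpl10, a late-joining protein of the large subunit, was called lower in all 3 as well (-0.22, -0.34 and -0.25). Rpl38, known for its part in the translation of Hox mRNAs, was called in the 2 single mutants (-0.19 and -0.20) and had -0.18 in double-null cells. Rpl15 and Rps3a, 2 of the members with the smallest replicate SD, fell in T-bet-null and STAT6-null cells, Rpl15 by 0.19 and 0.25 and Rps3a by 0.22 and 0.22 on the log2 scale.

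Paralogs did not all move with their parent genes. Rpl36al (chr12:69182734-69184067) encodes a protein nearly identical to that of Rpl36a, and it read 343 and 316 FPKM in WT, 377 and 382 in T-bet-null, 345 and 361 in STAT6-null, and 404 and 445 in double-null libraries. It rose in double-null cells (log2 difference 0.36, SE 0.067, limma adjusted p = 0.000967) and in T-bet-null cells (0.20, limma adjusted p = 0.0224), the latter call being lost without WT replicate 2, T-bet-null replicate 1 or T-bet-null replicate 2. In STAT6-null cells its value was 0.10 with no call. Rpl36a fell in all 3. As a share of the summed FPKM of both genes, Rpl36al made up 30.2% and 30.4% in the WT libraries and 39.2% to 42.3% in the 6 mutant libraries. Reads shared between the 2 genes could be split between them in ways the table does not show.

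Rps27 (chr3:90212667-90213648), a small subunit gene, varied more between replicates than any other member. It read 598 and 446 FPKM in WT, 221 and 484 in T-bet-null, 112 and 137 in STAT6-null, and 404 and 1692 in double-null libraries. The STAT6-null libraries were the lowest 2, and the double-null replicates stood furthest apart. The STAT6-null fall (log2 difference -2.05, SE 0.577, limma adjusted p = 0.0107) lost its call without WT replicate 1 (0.0653) or STAT6-null replicate 1 (0.0562). Its paralog Rps27l, a p53 target, read 76.0 and 64.6 FPKM in WT, 73.5 and 78.7 in T-bet-null, 82.9 and 81.8 in STAT6-null, and 86.9 and 80.4 in double-null libraries. It rose in STAT6-null (0.23, limma adjusted p = 0.0279) and double-null cells (0.25, limma adjusted p = 0.0181), and each call was lost in 3 of 17 alternatives, among them the one without WT replicate 2. Rpl30 was the other member of wide spread, at 15.1 and 18.4 FPKM in WT, 13.6 and 22.3 in T-bet-null, 23.0 and 17.7 in STAT6-null, and 18.2 and 34.1 in double-null libraries, with no call in any comparison.

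Rpl22 and its paralog Rpl22l1, which is known to be held down by RPL22 protein and matters for T cell development, fell together. Rpl22 read 118 and 106 FPKM in WT, 94.3 and 98.8 in T-bet-null, 83.7 and 87.6 in STAT6-null, and 89.8 and 84.2 in double-null libraries, and it was called lower in all 3 mutants (-0.21, -0.38 and -0.36). Rpl22l1 read 102 and 82.5 FPKM in WT, 77.6 and 72.0 in T-bet-null, 67.6 and 79.7 in STAT6-null, and 66.1 and 75.5 in double-null libraries. It was called lower in all 3 as well (-0.29, -0.32 and -0.37, limma adjusted p = 0.0459, 0.0331 and 0.0159). The double-null call of Rpl22l1 was lost without WT replicate 1 or double-null replicate 1. Rpl22l1 made up 42.2% to 47.7% of the summed FPKM of both genes over the 8 libraries, with WT at 46.4% and 43.9%, inside the mutant range.

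The remaining paralogs were close to silent. Rpl39l, known from testis, stood at 0.142 to 0.673 FPKM and Rps4y2, listed under Rps4l in RefSeq, at 0.623 to 1.04 FPKM, and neither entered the tests. Their parents Rpl39 and Rps4x stood at 593 to 988 FPKM and 1157 to 1592 FPKM. Rps4x, which lies on the X chromosome, was called lower in all 3 mutants (-0.24, -0.38 and -0.27).

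The 2 members that are not ribosomal proteins went against the core genes. Rps19bp1 (chr15:80260614-80264306) read 13.6 and 13.0 FPKM in WT, 23.9 and 25.5 in T-bet-null, 28.2 and 26.1 in STAT6-null, and 31.9 and 32.5 in double-null libraries. Every mutant library was above both WT libraries, and the double-null pair was above all others. The log2 difference from WT was 0.85, 0.98 and 1.22 (SE 0.0612 for each, limma adjusted p = 4.1e-06, 1.63e-06 and 3.64e-07). Rpl7l1 (chr17:46773907-46782656) read 29.8 and 28.5 FPKM in WT, 52.5 and 52.3 in T-bet-null, 48.4 and 54.1 in STAT6-null, and 55.4 and 57.9 in double-null libraries. It rose by 0.82, 0.79 and 0.94 on the log2 scale (SE 0.0634 for each, limma adjusted p = 5.74e-06, 6.42e-06 and 1.83e-06). Both genes kept these calls in all 17 alternatives. The parent of Rpl7l1 in name, the core gene Rpl7, had -0.11, -0.24 and -0.20, called lower in STAT6-null and double-null cells.

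**Figure D4:**
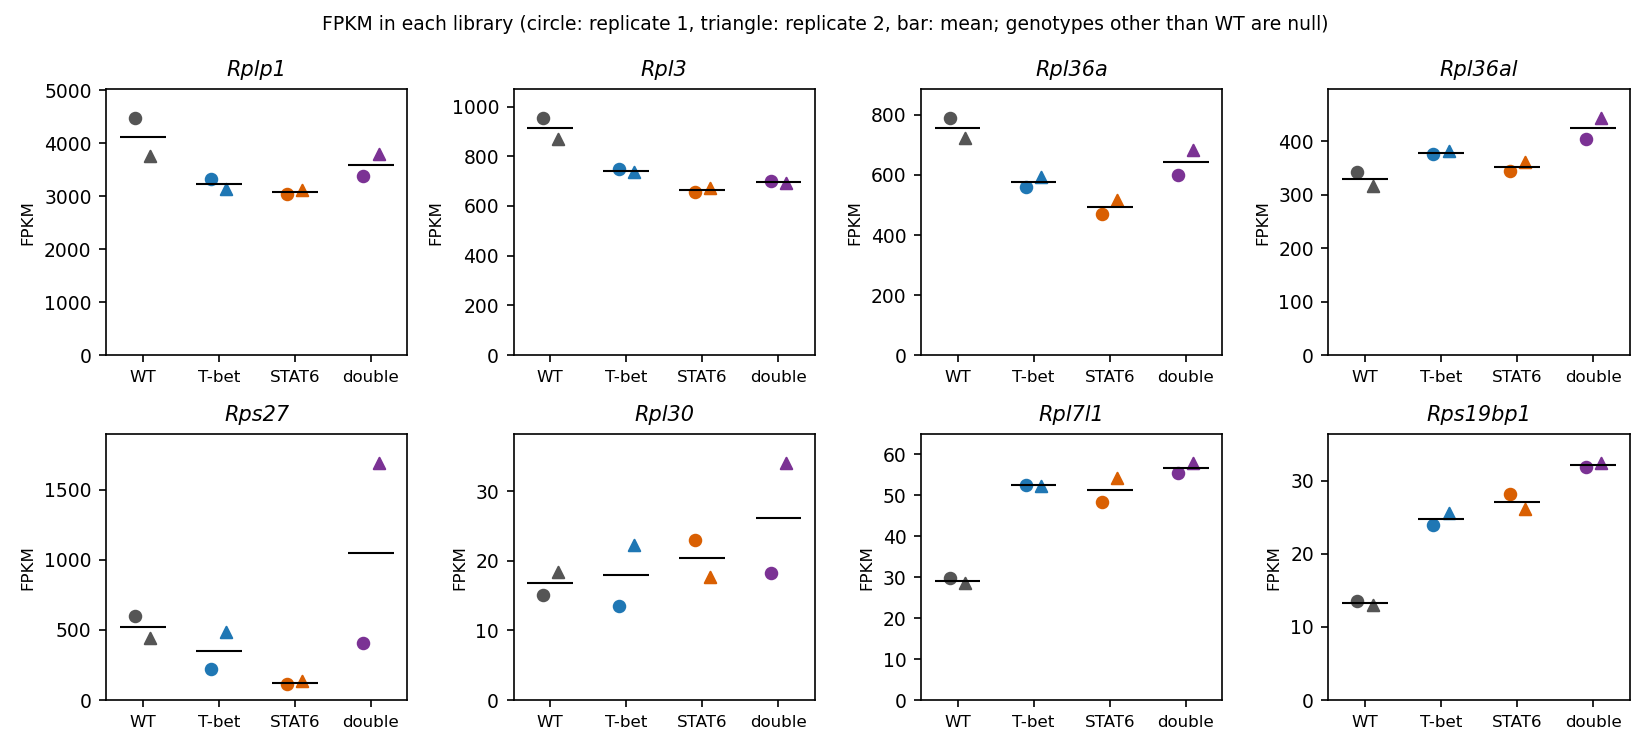
FPKM of 8 members in each library, on linear axes from 0 (circle: replicate 1, triangle: replicate 2, bar: mean of the pair). Rplp1, Rpl3 and Rpl36a have their highest mean in WT, though double-null replicate 2 is above WT replicate 2 in Rplp1 (3795 and 3759 FPKM). Rpl7l1 and Rps19bp1 are lowest in WT (28.5 to 29.8 and 13.0 to 13.6 FPKM). Rps27 and Rpl30 spread widely between replicates, most of all in double-null libraries.

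Genes of the wider ribosome pathway were taken from lists. Fau and Gnb2l1 encode ribosomal proteins whose symbols fall outside the rule. Fau, which encodes a small subunit protein fused to a ubiquitin-like domain, was called lower in all 3 mutants (-0.26, -0.30 and -0.31). Gnb2l1, which encodes the small subunit scaffold RACK1, was called lower in STAT6-null cells (-0.24) and had -0.11 in T-bet-null cells with no call. In double-null libraries Gnb2l1 read 928 and 1013 FPKM, against 1029 and 919 in WT, also with no call. These values lay within the range of the core genes.

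A list of 20 other genes known for TOP mRNAs, most of them translation factors, was called in both directions. Over all tested genes 34.2% to 36.3% were called higher and 36.1% to 36.7% lower in the 3 comparisons with WT. Of the 20, 7 were called higher and 2 lower in T-bet-null cells, 5 and 5 in STAT6-null cells, and 9 and 4 in double-null cells. The medians were 0.06, -0.02 and 0.13. Their summed FPKM, in which the most abundant genes weigh most, was 15877 and 15145 in WT and 13631 to 14628 in the mutants. Eef2, the translocation factor of elongation, fell by 0.26, 0.43 and 0.27 on the log2 scale, and Eif3f, a subunit of the initiation factor eIF3, fell by 0.29, 0.42 and 0.42. Eif2s3x and Eif3l, on the same list, went the other way. Eif2s3x read 49.2 and 50.95 FPKM in WT and 67.75 to 85.23 in the mutants. Eif3l read 50.99 and 48.62 FPKM in WT and 67.58 to 84.61 in the mutants. Cct8, a chaperonin subunit and no translation factor, rose by 0.67, 0.61 and 0.76.

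Genes that build ribosomes went the other way from the proteins that make them up. Of 30 ribosome biogenesis genes, 30 were called higher without T-bet, 29 without STAT6 and 30 without either, each against WT, and 0 lower in any. Of all tested genes 34.2%, 34.9% and 36.3% were called higher in these comparisons. The medians of the list were 1.08, 0.96 and 1.21 on the log2 scale. Nop2, an rRNA methyltransferase, read 18.1 and 18.9 FPKM in WT, 67.9 and 67.4 in T-bet-null, 60.7 and 58.7 in STAT6-null libraries, and up to 75.6 in double-null libraries. The 30 genes summed to 1500 and 1445 FPKM in WT and to 2561 to 3234 in the mutants, while the 83 members summed to 100824 and 89030 FPKM in WT and to 75784 to 87415 in the mutants. The 2 sets of sums did not overlap between WT and mutants, in opposite directions. Between the mutants, 11 of 30 were called lower in STAT6-null than in T-bet-null cells, against 14.9% of all tested genes. In double-null against T-bet-null cells 15 were called higher, against 16.4% of all tested genes. In double-null against STAT6-null cells 24 were called higher, against 11.3%. The interaction of the biogenesis list was negative, with 28 called negative and 0 positive. The shares of all tested genes were 27.7% negative and 29.6% positive.

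RNA polymerase I genes, which make the rRNA precursor, were mostly higher in the mutants. For the counts against WT given next, the shares of all tested genes were 34.2% to 36.3% higher and 36.1% to 36.7% lower. Of 11, 9 were called higher in T-bet-null and 10 in each of the other mutants, and 1, the subunit gene Polr1d, was called lower in all 3 (-0.47, -0.38 and -0.38). Polr1b had the largest rise, from 3.81 and 3.75 FPKM in WT to 17.0 to 22.5 in the single mutants and 22.6 and 19.4 in double-null cells. Of 12 chaperones and importers that serve new ribosomal proteins, 10 were called higher without T-bet, 10 without STAT6 and 11 without either, and 0 lower. Ipo5, an importin, read 33.4 and 34.1 FPKM in WT and 83.7 to 111 in the mutants, and Grwd1, which escorts RPL3, rose by 1.33, 1.21 and 1.55 on the log2 scale.

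Regulators of TOP mRNAs and of mTOR were called in both directions, at shares near those of all tested genes (34.2% to 36.3% higher and 36.1% to 36.7% lower). Of 14, 5 were called higher and 5 lower in T-bet-null cells, 5 and 4 in STAT6-null cells, and 5 and 5 in double-null cells. Larp1, which binds the TOP motif, read 29.5 and 29.4 FPKM in WT and 72.3 to 83.4 in the mutants, with log2 differences of 1.28, 1.34 and 1.45. Tsc2, an inhibitor of mTOR complex 1, fell by 0.83, 0.95 and 1.02, and Rptor, a subunit of that complex, fell by 0.66, 0.91 and 1.03. Mtor itself had values of -0.07, -0.02 and -0.01 with no call.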

How the data were processed

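RNA-seq libraries of 8 samples, 2 per genotype, were grouped by their own labels. The authors deposited 1 table of FPKM values (fragments per transcript length and per library size), made with Cufflinks on mm10, per the submitters' processing notes. The table is named for RefSeq genes. The aligner, the Cufflinks version, strandedness and the handling of reads shared between near-identical copies are not given in the sources used. The table has 11906 lines, all above 0.1 FPKM in every library (lowest 0.100123), so a gene silent in any library is not described. Repeated symbols kept the line of highest mean (65 lines set aside, 0 of them of members), and 17 lines with date names were left unnamed. Sequencing depth is not part of the table, so no counting interval is given.

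Tests were made on log2(FPKM + 1) by limma 3.58.1 under R 4.3.3, for genes with at least 1 FPKM in at least 2 libraries (10281 genes, 81 members). The single model took all 8 libraries, estimated each genotype's mean, left 4 residual degrees of freedom and used an intensity trend. P-values were two-sided and adjusted by Benjamini-Hochberg within each of 7 comparisons, and a call is an adjusted p under 0.05. Differences on this scale understate the change of low genes. The fit was tested on simulated data with the same spread in every gene and larger changes than those of most members. That test does not bear on small shifts shared by many genes. Alternatives were a pseudocount of 0.1, other filters (none, 5 FPKM), median-of-ratios scaling, quantile normalization, equal summed FPKM, summed lines, no trend, a replicate block and leaving out each library, 17 in all. Values of single members were chosen by rule: the 10 highest and 5 lowest by level, up to 5 called higher and 5 called lower per comparison (the 3 largest where none was called), paralogs with parents, stalk genes, members with a role beyond the ribosome, and extremes of replicate spread. From each pathway list up to 3 called genes of large difference could be named. Beyond that, Eef2, Eif3f, Eif2s3x, Eif3l, Polr1d, Mtor, Fosb and Il2 were chosen after their values were seen. Rpl21 and Rps2 are named as parts of small counts. Members and lists were chosen with earlier results of these data known. Coordinates are those of the RefSeq gene table (GRCm38), counted from 1; 81 members matched by symbol and 2 by an older symbol. Tables and figures were made in Python 3.11.15 (pandas 2.3.3, NumPy 2.4.6, matplotlib 3.10.9). Some single genes are not reported here.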

Additional observations from a re-analysis of the deposited data

Results flagged for a closer look

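The 7 members given here are among those in which the effect of STAT6 loss differed between cells with and without T-bet, by limma's test of the interaction. The log2 interaction was 3.39 for Rps27 (SE 0.816, adjusted p = 0.0069), 0.77 for Rpl36a (SE 0.119, adjusted p = 0.00071), 0.67 for Rpl28 (SE 0.121, adjusted p = 0.00161), 0.56 for Rplp1 (SE 0.141, adjusted p = 0.00831) and 0.56 for Rps26 (SE 0.141, adjusted p = 0.00835). Rps27 fell by 2.05 with STAT6 loss in cells with T-bet and had 1.34, with no call, in cells without it. Rpl28 fell by 0.27 in cells with T-bet and rose by 0.40 in cells without it. The interaction was -0.68 for Rpl7l1 (SE 0.0896, adjusted p = 0.000315) and -0.61 for Rps19bp1 (SE 0.0866, adjusted p = 0.00046). These last genes rose with STAT6 loss in cells with T-bet by 0.79 and 0.98. In cells without T-bet the values were 0.11, with no call, and 0.37, called. The 7 are the largest of 61 members with a called interaction, in the 2 directions, out of 81 tested. Of all tested genes 29.6% had a called positive interaction and 27.7% a called negative one. The Rps26 interaction lost its call under quantile normalization (adjusted p = 0.111), and the others kept theirs in all 17 alternatives. Groups of 2 libraries are too small to single out an outlying library.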

How the results depend on the processing

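Precision is limited by 2 libraries per genotype and by the WT pair, whose members differed by a median of -0.18 on the log2 scale. Of the other scalings, median-of-ratios gave 1 member lower in double-null against T-bet-null and 12 higher in double-null against STAT6-null. Quantile normalization gave, in T-bet-null against WT, 5 higher, 10 lower and a median of -0.0397; medians of -0.19 in STAT6-null against WT and 0.0483 in double-null against STAT6-null; in STAT6-null against T-bet-null 35 lower and a median of -0.16; in double-null against T-bet-null 2 higher, 23 lower and a reversed median of -0.10; and for the interaction 10 positive and a median of 0.09. The median SD of members in WT was then 0.0342. Equal summed FPKM gave 27 lower and a median of -0.12 in T-bet-null against WT, 52 lower in double-null against WT, 32 lower and -0.15 in STAT6-null against T-bet-null, 2 higher, 9 lower and a reversed -0.0598 in double-null against T-bet-null, 0.0833 in double-null against STAT6-null, and 35 positive and 0.20 for the interaction.

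Leaving out 1 library at a time, where a lone library is taken to vary like the other groups, T-bet-null against WT gave 2 to 4 higher and 11 to 71 lower (median -0.29 to -0.14). STAT6-null against WT gave 2 to 3 higher and 46 to 75 lower (-0.38 to -0.21), and double-null against WT 3 to 6 higher and 15 to 59 lower (-0.25 to -0.0741). STAT6-null against T-bet-null gave 0 to 3 lower, double-null against T-bet-null 1 to 9 higher and 0 to 1 lower, double-null against STAT6-null 0 to 15 higher, and the interaction 25 to 73 positive (0.25 to 0.42). No median changed sign when 1 library was left out.

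Replicate numbers were not taken as pairs, since deviations of same-numbered libraries correlated at -0.09 to 0.091 over all tested genes. The replicate block gave 2 in place of 4 members higher in double-null against T-bet-null and kept the other counts within 1.5 times. The pseudocount, both filters, summed lines and no trend kept every count within 1.5 times. The causes were not tested.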
